A study of Brassica napus with 24 samples.

Results

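The comparison described here set anthers of large buds (An-LBs) from MES-treated plants against An-LBs from mock-treated plants, taken from the samples whose titles name this tissue and treatment. These are 6 of the 24 arrays of the series, 3 per treatment, and each array held 43603 probes of a Brassica oligonucleotide array besides its control spots. The plants were the rapeseed (Brassica napus) cultivar Zhongshuang No. 9. The MES-treated plants were sprayed on the leaves at bolting with 0.1 μg/mL monosulfuron ester sodium (MES), about 15 mL per plant in a solution that also held DMF (50 ppm) and Tween 80 (5 ppm), and the mock-treated plants received that solution without MES. Large buds were over 3 mm long, which by the study's staging runs from vacuolated microspores to mature pollen. Each replicate was a mixture of plants from 20 rows, out of 60 rows per treatment in 1 field plot, so the p-values measure the spread between such mixtures in that plot. The series also holds leaves (Ls), small buds (SBs) and anthers of middle buds (An-MBs) under both treatments, used here where the response of An-LBs is set against theirs.

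MES is a sulfonylurea herbicide that blocks acetolactate synthase, the enzyme that starts the synthesis of the branched-chain amino acids, and at low dose it makes rapeseed plants male sterile. In a fertile anther of this age the tapetum, the layer that feeds the microspores, breaks down while the microspores become pollen grains. A ripening grain fills its vegetative cell with the transcripts it needs to germinate and to push out a pollen tube. These encode enzymes that loosen and set pectin in the tube wall, wall glycoproteins, ROP GTPase regulators that mark the growing tip, actin-binding proteins and SNAREs that serve vesicle delivery, calcium-dependent kinases, and pumps and channels that move protons and potassium.

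A value below is the normalized signal of a probe on the log2 scale, and calls of a higher or lower level come from limma (two-sided test), at an adjusted p below 0.05 by Benjamini-Hochberg together with a change of 2-fold or more. Feature Extraction marked 75.8% to 81.9% of the probes as well above background on the 3 MES arrays and 76.4% to 79.2% on the 3 mock arrays, with median raw signals of 833 to 1066 on MES arrays and 431 to 702 on mock arrays, and no probe was saturated. Arrays of the same treatment correlated at 0.971 to 0.982 (MES) and 0.965 to 0.990 (mock), and arrays of different treatments at 0.859 to 0.890, across all probes. The MES arrays lay on other slides than the mock arrays, so slide and treatment cannot be told apart within this tissue. MES replicates 1 and 3 and mock replicates 2 and 3 shared a scan date. MES replicate 2 was read on another scanner model. Gene names come from the study's own list of 1501 changed probes, named after Arabidopsis, and its primer table, which adds 20, so a gene outside them is not named here. Which of the near-identical Brassica gene copies a probe reads is not given in the sources used here.

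MES-treated large-bud anthers lacked most of the signal that dominated mock-treated ones, and they gained many smaller increases. Of 35095 probes tested, 10233 (29.2%) were changed, 6059 higher in MES (17.3% of those tested) and 4174 lower (11.9%). The levels of the groups did not overlap for 19766 probes (56.3%). The falls were the deeper ones. By fitted values, 1594 probes (4.54%) fell by at least 10-fold, 378 of them by at least 1000-fold, while 566 (1.61%) rose by at least 10-fold and 1 by at least 1000-fold. Of the 1594 falls 507 were of probes above background on no MES array, and counts with bounds follow below. The median log2 fold change was -2.42 over the lower probes, 1.63 over the higher probes and 0.24 over all probes tested. On the 4 arrays of the shared scan date, an alternative chosen after seeing the data, 3203 probes were higher and 2766 lower, and 5830 of the calls were among the 10233.

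Lower and higher probes also differed in level. The lower probes had a median level of 8.09 in MES An-LBs, against 11.98 in mock An-LBs, and the higher probes had 10.99 in MES An-LBs, against 9.06 in mock An-LBs. Of the 100 brightest probes in mock An-LBs, 83 were lower, 3 were higher and 14 were not called, and their median level in MES An-LBs was 8.32. Of the 100 brightest in MES An-LBs, 58 were higher, none was lower and 42 were not called. Their median level in mock An-LBs was 17.07, and the dimmest of them read 17.70 in MES An-LBs. Small rises at such levels changed with the scaling of the arrays. Over the 526 tested probes with a mean level of 16 or more, the median log2 fold change was 0.54 after quantile normalization. It was -0.06 when arrays were scaled by their 75th percentile instead, a scaling under which the 58 were not counted. Only 14 probes belonged to both sets of 100. The brightest probes of mock An-LBs thus mostly lost signal in MES An-LBs, whereas those of MES An-LBs were mostly bright in mock An-LBs too. By detection, 572 probes were well above background on all 3 MES and no mock array, and 612 on all 3 mock and no MES array. For such probes only a bound can be given: the mean of the bright group over that of the dim group, in which each array counts with the higher of the probe's own signal and the lowest signal that stood above background there. The bound of the first set had a median of 2.24-fold, with 45 probes at 10-fold or more, whereas that of the second had a median of 28.0-fold, with 413 at 10-fold or more and a largest value of 9071-fold. Counting bounds in place of fitted values, 477 probes were higher and 1500 were lower by at least 10-fold, and 1 was higher and 316 were lower by at least 1000-fold. A fitted value is given where any array of the dim group was above background, so some fitted falls also rest on signals near the floor.

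**Figure D1:**
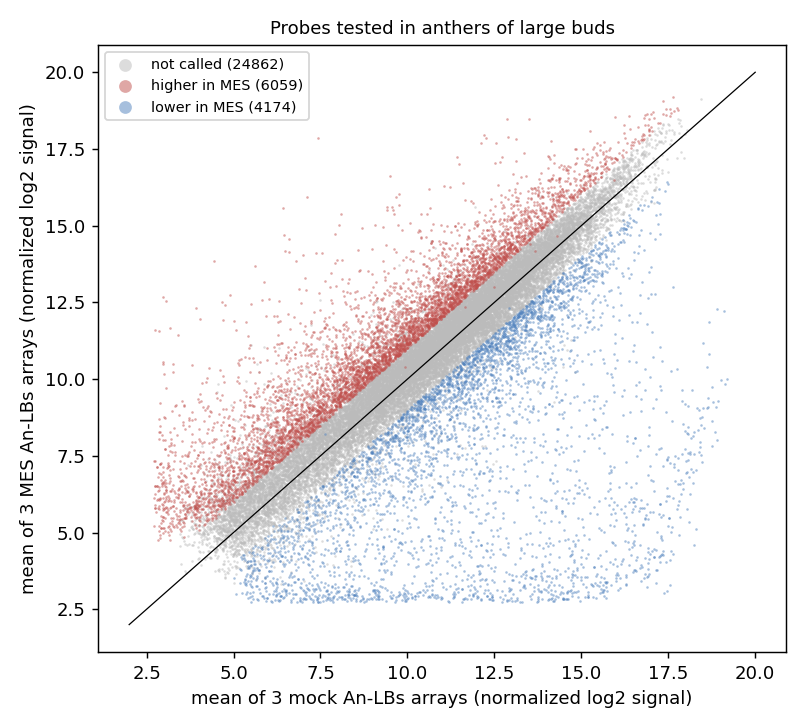
Mean normalized log2 signal of each of the 35095 probes tested, over 3 MES An-LBs arrays (vertical axis) and 3 mock An-LBs arrays (horizontal axis), with the line of equality and 6059 higher, 4174 lower and 24862 uncalled probes in their own colours. The lower probes reach from the brightest mock levels down to the floor of the MES arrays, while the higher probes keep closer to the line.

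The gene lists used from here on were built from that list of changed probes, which the study chose on these samples, so their counts describe the members and are no independent evidence of a direction. Of the 1238 probes the study listed for An-LBs, 415 were higher and 823 lower. Of the 252 tested that it listed only for other tissues, 76 were higher, 67 lower and 109 not called, at a median of 0.17, beside 17.3% higher, 11.9% lower and a median of 0.24 over all probes tested. These shares over all probes tested also stand beside every list count in An-LBs below.

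The transcripts of the pollen vegetative cell and the pollen tube were lower in MES An-LBs throughout. All 26 probes of 17 such marker genes were lower, at a median log2 fold change of -10.50, beside 11.9% lower and a median of 0.24 over all probes tested. Each was well above background on all 3 mock arrays, whereas in MES An-LBs 9 were so on all 3 arrays, 8 on some and 9 on none. With those 9 at their bounds the median was -10.24. The summed signal of the 26 probes was 2.35, 2.94 and 7.36 on the MES arrays, against 3657, 3375 and 3323 on the mock arrays, in units of 1000. In extracts of whole anthers, fewer pollen cells and less of these RNAs in each cell cannot be told apart. Of the markers of other anther cells, 1 of 13 for the tapetum and 0 of 4 for sperm cells had a named probe.

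The array files hold no probe sequences, so the study's qRT-PCR primers stand in for the transcripts behind the results, 3 of them pollen genes that fell and 1 a chlorophyll gene that rose. They are written 5′ to 3′, forward and then reverse, in lower case, and the products are 170, 157, 180 and 200 bases long in the order given.
VGDH1 forward: ggtccttctcgtcgtctc
VGDH1 reverse: aactgtccgcttccatcc
PPME1 forward: agatggcattagagtgataacag
PPME1 reverse: ctcggtgtaggcgtagac
HA9 forward: gagatcaatcagtggcaatcc
HA9 reverse: acagcaatgacagtagcaatc
CRD1 forward: cttggctcttgacttgggtttcc
CRD1 reverse: tctcgtcttggcaccagttctc

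Among these markers, the pectin methylesterases of the VANGUARD group and PPME1, which de-esterify pectin in the pollen tube wall, were among the brightest probes of mock anthers. VGDH1 (AT2G47030) read 7.48, 7.81 and 9.56 in MES An-LBs, against 18.90, 19.15 and 18.51 in mock An-LBs, a log2 fold change of -10.57 ± 0.56 (standard error of the fit), adjusted p = 5.27e-05. PPME1 (AT1G69940) had 2 probes. The brighter, for which the primers above were made, read 7.54, 8.19 and 10.17 in MES An-LBs, against 18.78, 18.71 and 18.81 in mock An-LBs (-10.14 ± 0.65, adjusted p = 0.000119), and the other read 6.99, 6.07 and 7.38 in MES An-LBs, against 18.15, 17.95 and 18.16 in mock An-LBs (-11.27 ± 0.35, adjusted p = 6.64e-06). The groups lay far apart in each case, and MES replicate 3 was the highest of the 3 MES arrays for all of these probes. VGD1 (AT2G47040) was lower on all 3 of its probes, with log2 fold changes of -10.65 and -9.56 on the brighter ones and a bound of at least 177-fold on the dimmest. VGDH2 (AT3G62170) retained the most signal of the markers, with 8.81, 9.84 and 11.23 in MES An-LBs, against 19.03, 18.98 and 19.03 in mock An-LBs (-9.05 ± 0.58, adjusted p = 0.000119), while its weaker probe did not stand well above background in MES An-LBs (at least 1261-fold lower).

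Pectin enzymes as a whole held some of the deepest falls and also the largest rise of these anthers. Of 52 probes tested from 29 genes, 4 were higher and 48 lower, at a median of -9.47 (-8.82 with bounds). The probe of AT3G07850, a pectin lyase-like protein, read 2.84, 3.47 and 3.55 in MES An-LBs, against 17.68, 17.66 and 17.35 in mock An-LBs, at least 9071-fold lower in MES An-LBs (adjusted p = 2.56e-06). AT5G15110, a pectate lyase, was at least 3306-fold lower, and AT59 (AT1G14420), a pectate lyase of Arabidopsis pollen, at least 3232-fold. The invertase and pectin methylesterase inhibitor family member AT2G26450 read 2.80, 2.89 and 4.53 in MES An-LBs, against 16.79, 17.04 and 16.33 in mock An-LBs and was above background on 1 MES array (-13.31 ± 0.50, adjusted p = 1.40e-05). All 4 were at or near the floor of the MES arrays and among the brighter signals of mock anthers. PGA4 (AT1G02790), a polygalacturonase, was dimmer in mock anthers and at least 68.4-fold lower.

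Against this, ATPMEPCRD (AT2G43050), another pectin methylesterase, had the largest rise among all probes detected on every array. It read 18, 18.10 and 17.51 in MES An-LBs, against 7.44, 7.86 and 6.98 in mock An-LBs (10.44 ± 0.29, adjusted p = 5.50e-06), which placed it beside the brightest probes of MES anthers. The other 3 higher probes of the list all belonged to AT5G23870, a pectin acetylesterase, and the strongest of them read 11.37, 11.43 and 11.82 in MES An-LBs, against 8.69, 8.20 and 8.35 in mock An-LBs (3.13 ± 0.21, adjusted p = 0.000152). Neither gene's groups overlapped. The rule that names genes also picked the probes with the largest falls among those detected on all 6 arrays: besides PPME1 these were AT1G11770, a berberine-family FAD enzyme (-11.33 ± 0.31, adjusted p = 5.49e-06), and 3 probes without a name here, with log2 fold changes of -11.60, -11.48 and -11.32.

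Wall glycoproteins and the DUF1216 family were lower too. Of 15 probes for arabinogalactan proteins, fasciclin-like proteins, Ole e 1-like and extensin proteins and SKU5-like oxidases, none was higher and 14 were lower (median -10.65), and the extensin-like ELP read a log2 fold change of 0.48 and was not called. AGP41 (AT5G24105), a small arabinogalactan protein, read 2.74, 2.73 and 3.85 in MES An-LBs, against 17.60, 17.53 and 17.29 in mock An-LBs, at least 8533-fold lower (adjusted p = 3.96e-06). FLA3 (AT2G24450), a fasciclin-like protein of Arabidopsis microspores, read 5.39, 5.26 and 6.33 in MES An-LBs, against 17.08, 17.18 and 16.65 in mock An-LBs (-11.31 ± 0.33, adjusted p = 5.98e-06). The Ole e 1 family member AT4G18596 was at least 2524-fold lower. AGP23 (AT3G57690) changed by -11.01 on the log2 scale, and the 4 probes of SKS12 (AT1G55570) by -10.19 to -11.26. All 18 DUF1216 probes, from 6 genes of unknown function, were lower, at a median of -9.78, and 9 of them were not on the study's list for this tissue. The study listed those 9 as changed in other tissues, so they too were chosen on this series. In An-MBs 14 of the 15 DUF1216 probes tested were lower. The deepest fitted fall of the family in An-LBs with an MES array above background was AT3G28840, with 4.55, 4.48 and 5.98 in MES An-LBs, against 17.71, 17.35 and 17.67 in mock An-LBs (-12.57 ± 0.43, adjusted p = 9.55e-06). AT5G61720 and AT3G28790 had log2 fold changes of -11.63 and -10.93.

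**Figure D2:**
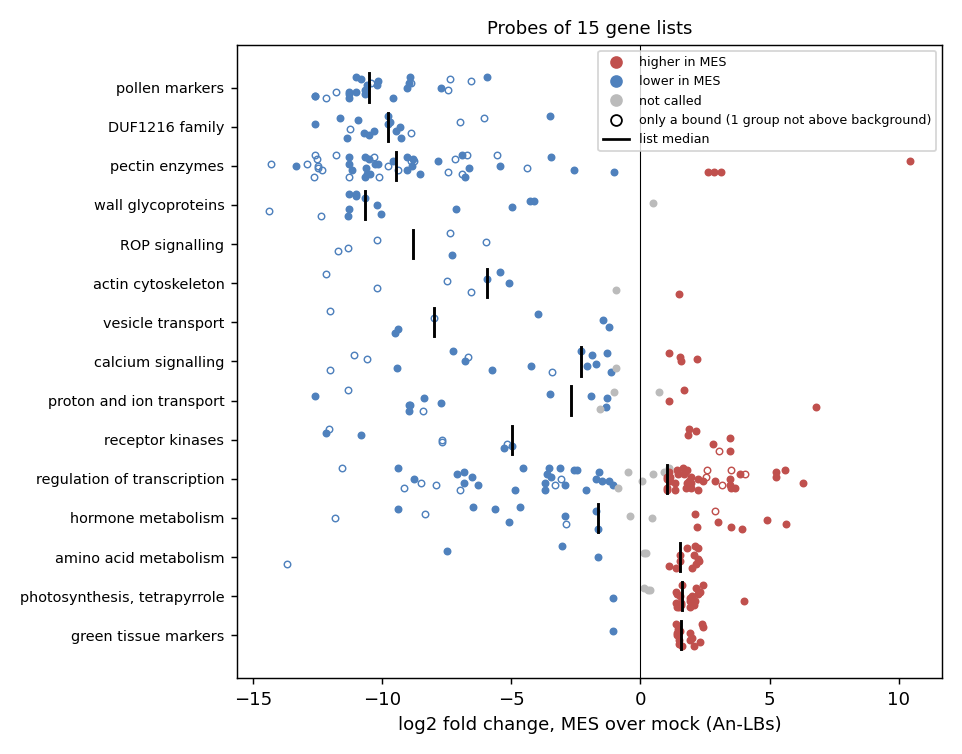
Log2 fold change of MES over mock An-LBs (horizontal axis) for each probe of 15 gene lists, with the list median as a bar and open points where 1 group was not above background on any array. The pollen, DUF1216, pectin and wall glycoprotein lists centre between -9.47 and -10.65, and the photosynthesis and green tissue lists at 1.61 and 1.56.

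The machinery that steers growth of the pollen tube tip was lower as well. All 6 ROP signalling probes were lower (median -8.79, -8.26 with bounds), beside 11.9% of all probes tested. All 6 were on the study's list for An-LBs. Of these, 5 had no MES array above background and passed the filter through the mock arrays alone. With a filter on all 6 arrays 1 was left. ROPGEF12 (AT1G79860), which switches ROP GTPases on, read 2.78, 2.78 and 3.63 in MES An-LBs, against 14.81, 15.37 and 14.16 in mock An-LBs, at least 1322-fold lower (adjusted p = 8.67e-06). The ROP effectors RIC5 (AT3G23380) and RIC6 (AT2G20430) were at least 844-fold and 594-fold lower, and REN1 (AT4G24580), a GTPase-activating protein that confines ROP activity to the tip in Arabidopsis, at least 74-fold. In MES An-LBs none of the 4 stood well above background.

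In the actin cytoskeleton list 1 probe was higher, 7 were lower and 1 was not called. ADF7 (AT4G25590), an actin depolymerizing factor of Arabidopsis pollen, read 2.79, 2.95 and 4.14 in MES An-LBs, against 15.46, 15.75 and 15.16 in mock An-LBs, at least 2088-fold lower (adjusted p = 7.97e-06). ADF10 (AT5G52360) fell by 5.92, and ACT4 (AT5G59370), an actin of reproductive tissue in Arabidopsis, was at least 66.1-fold lower. The myosin-related AT4G03620 was at least 549-fold lower. The exception was profilin 3 (PFN3, AT5G56600), which binds actin monomers, with 12.37, 12.19 and 12.53 in MES An-LBs, against 10.96, 10.63 and 11 in mock An-LBs (1.496 ± 0.18, adjusted p = 0.00163). It was called under both scalings of the arrays but did not pass a test against a 2-fold change.

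All 7 vesicle transport probes were lower (median -7.99, -6.82 with bounds), beside 11.9% of all probes tested. All 7 were on the study's list for An-LBs. The syntaxin SYP125 (AT1G11250) read 2.80, 2.77 and 3.14 in MES An-LBs, against 15.03, 15.38 and 14.33 in mock An-LBs, at least 1445-fold lower (adjusted p = 4.25e-06). SYP72 (AT3G45280) and EXO70C2 (AT5G13990), a subunit of the exocyst that tethers vesicles, were lower, with log2 fold changes of -9.49 and -9.39. SNAP30 (AT1G13890), a SNARE listed under protein targeting, was at least 1928-fold lower. In that list 4 of 15 probes were higher and 11 lower, and its largest rise was PEX11D (AT2G45740), which divides peroxisomes, with 10.89, 9.65 and 9.31 in MES An-LBs, against 5.72, 3.995 and 5.58 in mock An-LBs (4.85 ± 0.61, adjusted p = 0.0017).

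Calcium signalling and receptor kinases divided between the directions. Of 21 calcium probes 4 were higher and 16 lower (median -2.30). RHS1 (AT1G05990), an EF-hand protein, read 3.66, 2.94 and 3.28 in MES An-LBs, against 15.24, 15.69 and 14.98 in mock An-LBs, at least 1896-fold lower (adjusted p = 3.89e-06), and the calcium-dependent kinases CPK17 (AT5G12180) and CPK24 (AT2G31500) were at least 982-fold and 643-fold lower. The strongest rise was the EF-hand protein AT2G27480 (2.19 ± 0.19, adjusted p = 0.000391), followed by the calmodulin-binding proteins AT5G57580 (1.56) and AT4G25800 (1.52). Falls and rises thus differed greatly in size. Of 15 receptor kinase probes 7 were higher and 8 lower. The kinase AT3G18810 was at least 2017-fold lower, and IGI1 (AT1G23540) fell by 12.15. ANX2 (AT5G28680), which keeps the growing tube from bursting in Arabidopsis, read 2.96, 4.66 and 3.59 in MES An-LBs, against 14.63, 14.85 and 14.11 in mock An-LBs (-10.79 ± 0.46, adjusted p = 2.24e-05). IGI1 and ANX2 each stood well above background on only 1 MES array, so the sizes of their falls rest on values near the floor. Opposite to these, the leucine-rich repeat kinase LRR XI-23 (AT1G09970) read 15.99, 15.82 and 15.78 in MES An-LBs, against 12.70, 12.10 and 12.40 in mock An-LBs (3.46 ± 0.20, adjusted p = 7.77e-05), and AtRLP1 (AT1G07390) rose by 3.45. Of 16 G-protein probes 4 were higher and 12 lower, among them the Rab GDP dissociation inhibitor AT5G09550 with 6.39, 7.70 and 8.62 in MES An-LBs, against 17.30, 16.80 and 17.34 in mock An-LBs (-9.58 ± 0.56, adjusted p = 7.82e-05). The rises in that list were small or bounded low, with AGD4 (AT1G10870) at least 3.33-fold higher and VIP3 (AT4G29830) higher by 1.76.

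Proton pumps and ion transporters known from pollen fell, while a sodium and potassium transporter rose strongly. Of 18 probes 3 were higher, 12 lower and 3 not called (median -2.71). HA9 (AT1G80660), a plasma membrane proton pump, read 8.45, 8.85 and 10.06 in MES An-LBs, against 18.71, 16.98 and 18.53 in mock An-LBs (-8.96 ± 0.60, adjusted p = 0.000147). The related pumps AHA6 (AT2G07560) and AHA8 (AT3G42640) were lower, with log2 fold changes of -7.73 and -8.93, whereas AHA1 (AT2G18960), a pump of vegetative tissue, was higher by 1.10 ± 0.16 (adjusted p = 0.00326), and fell short of 2-fold when arrays were scaled by their 75th percentile (0.96). CHX23 (AT1G05580) and CHX8 (AT2G28180), cation/proton exchangers, were lower, with log2 fold changes of -12.60 and -8.97. Like AHA8, each stood well above background on only 1 MES array, so the sizes of these falls rest on values near the floor. SKOR (AT3G02850), an outward potassium channel, was at least 862-fold lower. HKT1 (AT4G10310) read 15.27, 14.52 and 14.36 in MES An-LBs, against 8.02, 7.08 and 8.70 in mock An-LBs (6.78 ± 0.46, adjusted p = 0.00015), without overlap and with all 3 MES arrays above 14 on the log2 scale. The potassium permease KUP9 (AT4G19960) rose by 1.67.

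**Figure D3:**
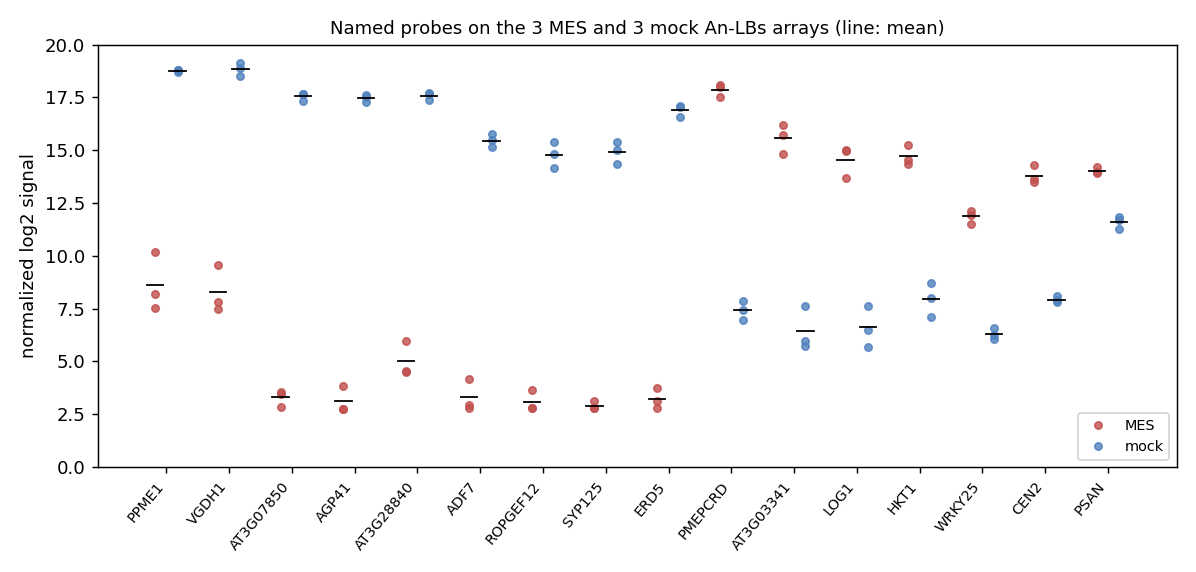
Normalized log2 signal of 16 named probes on the 3 MES (left of each pair) and 3 mock (right) An-LBs arrays, with a line at each group mean. PPME1 to ERD5 sit at 14.16 or above in mock An-LBs and far lower in MES An-LBs, and PMEPCRD to PSAN sit higher in MES An-LBs.

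Among called probes that stood above background on all 6 arrays without overlap between the groups, the 4 next largest rises after ATPMEPCRD were of 2 named transcripts and 2 probes with no name here. AT3G03341, of unknown function, read 16.21, 14.84 and 15.72 in MES An-LBs, against 5.71, 5.94 and 7.64 in mock An-LBs (9.16 ± 0.60, adjusted p = 0.000132). LOG1 (AT2G28305), whose Arabidopsis counterpart releases active cytokinin, read 14.99, 14.97 and 13.69 in MES An-LBs, against 6.504, 5.70 and 7.62 in mock An-LBs (7.94 ± 0.58, adjusted p = 0.000208). In both, every MES array exceeded every mock array by over 6 on the log2 scale. The probes with no name rose by 8.81 and 7.72. In the cell organisation list the largest rise was of CEN2 (AT4G37010), a centrin, which read 14.28, 13.48 and 13.62 in MES An-LBs, against 7.88, 7.80 and 8.09 in mock An-LBs (5.87 ± 0.25, adjusted p = 2.24e-05).

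Photosynthesis transcripts were higher in MES An-LBs, by less and more evenly than the pollen transcripts were lower. Of 25 probes for photosynthesis and tetrapyrrole synthesis, 21 were higher, 1 lower and 3 not called, at a median of 1.61 beside 0.24 over all probes tested, and 17.3% of all probes were higher. The count was the same with arrays scaled by their 75th percentile (median 1.56). The green tissue markers summed to 346.8, 294 and 305.4 on the MES arrays, against 99.8, 102 and 101.2 on the mock arrays, in units of 1000. Of their 16 probes 15 were higher and 1 lower (median 1.56). The pollen markers were lower on the same arrays, as given above, and the part of that loss in these rises was not tested.

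PSAN (AT5G64040), a photosystem I subunit, read 13.96, 14.21 and 13.91 in MES An-LBs, against 11.86, 11.29 and 11.69 in mock An-LBs (2.42 ± 0.21, adjusted p = 0.000399). PSAG (AT1G55670) of the same complex rose on both probes, by 2.36 and 2.30, PSAL and PSAK by 1.52 and 1.98, and the photosystem II subunits PSBW and PSBQ by 1.90 and 1.42. RCA (AT2G39730), which activates Rubisco, read 13.46, 13.18 and 13.17 in MES An-LBs, against 11.22, 11.58 and 11.26 in mock An-LBs (1.91 ± 0.18, adjusted p = 0.00059). The Calvin cycle enzymes GAPA and GAPA-2 rose on all 5 probes, by 1.41 to 1.61, and the ferredoxin reductase LFNR1 (AT5G66190) by 2.05. PSAO (AT1G08380), also of photosystem I, was the lower probe, with 12.76, 12.98 and 13.04 in MES An-LBs, against 13.98, 14.13 and 13.88 in mock An-LBs (-1.07 ± 0.16, adjusted p = 0.00353), and was no longer called without MES replicate 1 (-0.99). CP12-2 (AT3G62410), a Calvin cycle regulator, had the largest fitted rise of the list, at 4.01 ± 1.08 (adjusted p = 0.0274). Its mock values of 6.33, 3.24 and 7.51 were widely spread, and the call was lost without any of the 3 MES replicates or mock replicate 1 (adjusted p from 0.0548 to 0.0783). LHCA3 (AT1G61520; 1.39 ± 0.36, adjusted p = 0.0247) was lost without any array except MES replicate 2 (adjusted p from 0.0518 to 0.0828). The other green tissue probes did not depend on any array.

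Chlorophyll genes were among the probes that the study's primer table files under randomly selected genes. CRD1 (AT3G56940), a cyclase of chlorophyll synthesis, read 14.78, 15.01 and 14.61 in MES An-LBs, against 13.11, 12.85 and 13.003 in mock An-LBs (1.81 ± 0.18, adjusted p = 0.000651), the other probe the primer table gives for it rose by 1.83, and the 3 further probes that the list of changed probes gives for it rose by 1.55 to 1.84. Chlorophyllase 1 (CLH), which takes the tail off chlorophyll, rose on both probes, by 2.22 and 2.43, and beta-carotene hydroxylase (BCH1) by 3.59. The magnesium chelatase subunit CHLI read 11.27, 11.11 and 10.92 in MES An-LBs, against 9.92, 10.88 and 9.97 in mock An-LBs and was not called (0.84 ± 0.30, adjusted p = 0.0647), and coproporphyrinogen oxidase (COPX) was not called either (-0.24 ± 0.29, adjusted p = 0.533). The 23 probes under that heading, which also include UBC9 and AOAT2, held 21 that could be tested. Of these 9 were higher and none was lower, at a median of 0.84 (0.56 with the 75th percentile), beside 17.3% higher, 11.9% lower and a median of 0.24 over all probes tested. VGDH1, VGDH2, PPME1, PGA4 and HA9, all lower, stand in the same table under headings of function and are not among the 23. 18 of the 21 were not on the study's list for this tissue, and 6 of those 18 were higher.

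The actin transcript that served as the study's qRT-PCR reference was itself among the bright probes. Its 3 probes changed by 0.86, 1.07 and 0.90 on the log2 scale after quantile normalization (adjusted p = 0.00488, 0.00684 and 0.00761), of which the middle one was called, while with arrays scaled by their 75th percentile they changed by 0.04, 0.18 and 0.07 and none was called. The same gap appeared over all 526 tested probes with a mean level of both groups of 16 or more, whose median log2 fold change was 0.54 after quantile normalization and -0.06 with the 75th percentile. UBC9 (AT4G27960), a ubiquitin-conjugating enzyme, likewise was higher by 1.09 after quantile normalization and by 0.56 with the 75th percentile. Calls of bright transcripts near 2-fold thus changed with the scaling.

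Transcription regulators split between the directions. Of 77 probes 40 were higher, 31 lower and 6 not called (median 1.03), and 9 were at least 10-fold higher counting bounds, as were 477 of the 35095 probes tested. WRKY25 (AT2G30250), a stress-responsive factor in Arabidopsis, read 12.12, 11.95 and 11.53 in MES An-LBs, against 6.06, 6.59 and 6.23 in mock An-LBs (5.57 ± 0.23, adjusted p = 2.16e-05). The bZIP factor AT1G77920 read 10.83, 10.35 and 10.89 in MES An-LBs, against 5.68, 4.59 and 6.04 in mock An-LBs (5.25 ± 0.40, adjusted p = 0.00025). The largest rise filed under this heading, AT5G10770, is an aspartyl protease by its description (16.23, 15.70 and 15.90 in MES An-LBs, against 9.59, 10.26 and 9.14 in mock An-LBs; 6.28 ± 0.32, adjusted p = 4.51e-05). None of these groups overlapped. On the other side, the zinc finger protein AT2G17180 was at least 1158-fold lower, the homeodomain-like AT3G16350 at least 193-fold, and TRFL2 (AT1G07540), similar to telomere repeat-binding factors, fell by 9.37.

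Of 21 hormone metabolism probes 8 were higher, 11 lower and 2 not called. GA2OX2 (AT1G30040), which inactivates gibberellins, read 11.59, 10.30 and 11.28 in MES An-LBs, against 6.07, 5.85 and 6.55 in mock An-LBs (4.90 ± 0.38, adjusted p = 0.000264), and the oxygenase AT2G30840 rose by 3.92. The largest rise, AT4G27450 (5.63 ± 0.28, adjusted p = 4.00e-05), is described as an aluminium-induced protein. The deepest fall, the dormancy- and auxin-associated AT5G44300, read 2.88, 2.80 and 2.77 in MES An-LBs, against 15.93, 12.65 and 15.30 in mock An-LBs, with mock replicate 2 below the other mock arrays, and was at least 1187-fold lower. AT5G53820, a late embryogenesis abundant protein, fell by 9.38, and the abscisic acid-responsive HVA22 homologue HVA22B (AT5G62490) was at least 202-fold lower. In the development list 13 of 26 probes were higher, 9 lower and 4 not called. It ran from the seed maturation protein AT5G27980, at least 3205-fold lower, to the nodulin-like transporter AT5G64700, with 12.22, 12.97 and 13.03 in MES An-LBs, against 9.76, 7.60 and 9.82 in mock An-LBs (3.68 ± 0.64, adjusted p = 0.00583). PTEN1 (AT5G39400), a phosphatase of Arabidopsis pollen, was at least 594-fold lower.

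The amino acid metabolism list held more rises than falls. Of 18 probes 12 were higher, 4 lower and 2 not called (median 1.53), beside 17.3% higher and 11.9% lower over all probes tested. The study had listed 16 of the 18 as changed in An-LBs, and the 2 it had not were not called. HGO (AT5G54080), which breaks down tyrosine products, read 15.20, 15.49 and 15.37 in MES An-LBs, against 13.07, 13.27 and 13.02 in mock An-LBs (2.23 ± 0.16, adjusted p = 0.000208), and the aminotransferase AOAT2 (AT1G70580) and the thiolase AT5G47720 rose by 2.26 and 2.24. The falls were deeper. ERD5 (AT3G30775), the Arabidopsis proline dehydrogenase, read 3.75, 2.77 and 3.13 in MES An-LBs, against 17.02, 17.10 and 16.56 in mock An-LBs, at least 5719-fold lower (adjusted p = 3.63e-06). The aspartate-glutamate racemase family member AT1G15410 read 10.43, 9.64 and 9.29 in MES An-LBs, against 17.39, 16.91 and 17.51 in mock An-LBs (-7.49 ± 0.34, adjusted p = 2.86e-05). No named probe was described as acetolactate synthase, the target of MES.

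Transporters of nitrogen compounds and sugars were few and mixed. Of 10 nitrogen transport probes 5 were higher and 3 lower. OPT1 (AT5G55930), an oligopeptide transporter, read 9.61, 9.91 and 9.92 in MES An-LBs, against 15.89, 16.25 and 15.58 in mock An-LBs (-6.10 ± 0.22, adjusted p = 1.24e-05), and the amino acid transporter AT5G02180 was at least 490-fold lower, while AT1G22570, AT2G26690 and the ammonium transporter AMT2 (AT2G38290) rose by 2.57, 2.26 and 2.19. Of 7 sugar transport probes 2 were higher, 1 lower and 4 not called, and without mock replicate 2 the higher ones were 4. ESL1 (AT1G08920), a sugar transporter of the vacuole membrane in Arabidopsis, read 12.87, 13.25 and 12.93 in MES An-LBs, against 8.89, 8.91 and 9.23 in mock An-LBs (4.01 ± 0.19, adjusted p = 3.26e-05). INT2 (AT1G30220), an inositol transporter, was at least 2.8-fold higher, and the nucleotide-sugar transporter AT5G65000 at least 12.9-fold lower.

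Among stress categories, 5 of 25 abiotic probes were higher and 19 lower, and 4 of 9 biotic probes were higher and 5 lower. The small heat shock protein AT2G29500 read 14.57, 14.38 and 14.33 in MES An-LBs, against 10.96, 10.96 and 11.41 in mock An-LBs (3.32 ± 0.19, adjusted p = 7.37e-05), and the calcium-dependent lipid-binding AT2G13350 fell by 11.90. SPX1 (AT5G20150), a phosphate sensor, was higher by 1.42 ± 0.41 (adjusted p = 0.0415) and lost that call without MES replicate 3, mock replicate 1 or mock replicate 2 (adjusted p from 0.0892 to 0.158). The chitinase-like AT4G19810 was at least 19.7-fold higher and the resistance protein RPM1 (AT3G07040) at least 4.5-fold higher. MLO5 (AT2G33670), a membrane protein of the Arabidopsis pollen tube, was at least 1308-fold lower, and the secreted CAP proteins AT4G25780 and AT2G19980 at least 2064-fold and 1140-fold.

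In secondary metabolism 7 of 14 probes were higher and 5 lower. MYB51 (AT1G18570), which turns on indole glucosinolate synthesis, read 10.11, 9.82 and 10.15 in MES An-LBs, against 6.59, 6.22 and 6.88 in mock An-LBs (3.46 ± 0.22, adjusted p = 0.000119), and NSP5 (AT5G48180), which directs glucosinolate breakdown to nitriles, was higher by 2.19. The O-methyltransferase AT1G76790 was at least 1768-fold lower. LAP6 (AT1G02050), a polyketide synthase that makes a precursor of the pollen wall polymer sporopollenin and the tapetum marker with a probe, read 3.76, 3.75 and 4.43 in MES An-LBs, against 8.28, 8.73 and 7.70 in mock An-LBs, at least 13.1-fold lower (adjusted p = 0.000264).

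In the DNA, cell organisation, respiration and redox lists more probes were lower than higher. Most of these probes came from the study's list for An-LBs, which itself held 823 lower and 415 higher probes. Over all probes tested 11.9% were lower and 17.3% higher. Of 16 DNA probes 5 were higher and 11 lower, of 24 cell organisation probes 6 were higher and 17 lower, of 12 respiration probes 4 were higher and 7 lower, and of 9 redox probes 3 were higher and 6 lower. The nucleosome assembly protein NFA02 (AT2G19480) and the histone H2A HTA10 (AT1G51060) were lower, with log2 fold changes of -6.74 and -4.33. NADP-ME3 (AT5G25880), a malic enzyme, read 11.69, 11.85 and 11.81 in MES An-LBs, against 16.95, 16.81 and 16.91 in mock An-LBs (-5.11 ± 0.14, adjusted p = 5.58e-06). CYTC-1 (AT1G22840), a cytochrome c, and glutathione peroxidase GPX4 (AT2G48150) were at least 210-fold and 891-fold lower, whereas FTRA1 (AT5G23440), a subunit of the chloroplast thioredoxin reductase, rose by 1.87. Of 10 protein synthesis probes 4 were higher, 3 lower and 3 not called. The initiation factor AT5G54940 rose by 2.62 and the elongation factor Tu family member AT4G02930 fell by 4.72.

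Different named probes of a gene mostly moved together. Only probes on the study's list of changed probes carry an Arabidopsis identifier, and most were listed for An-LBs. That favours called probes, and other probes of the same genes are not counted. Of 206 Arabidopsis identifiers with several tested probes, 54 had all probes higher, 140 all lower, 7 had no probe called, 3 had some probes called in 1 direction and others uncalled, and 2 had probes in both directions. ATMPK18 (AT1G53510), a MAP kinase, had 1 probe with 12.89, 12.74 and 12.87 in MES An-LBs, against 11.24, 10.93 and 11.22 in mock An-LBs (log2 fold change 1.70) and another with 6.67, 6.61 and 6.39 in MES An-LBs, against 11.90, 12.34 and 11.58 in mock An-LBs (-5.38). ATPLDDELTA (AT4G35790), a phospholipase D, was lower on 2 probes (-2.57 and -3.01) and higher on the third (1.21). Whether these probes read different copies of the gene was not tested. Probes outside the study's list that carry the sequence identifier of a listed probe gave 61 pairs with a higher and 46 with a lower listed probe. The second probe was called the same way in 51 and 43 of them, was not called in 10 and 3, and was never called the other way.

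The response of An-LBs was then set against those of the other tissues, each as MES minus mock, in 1 fit of all 24 arrays. Over 37833 probes the effect differed at an adjusted p under 0.05 from that in An-MBs for 5379 (14.2%; 2596 more positive in An-LBs and 2783 more negative), from that in SBs for 8014 (21.2%; 4412 and 3602), and from that in Ls for 10951 (28.9%; 6229 and 4722). The 3 counts share the An-LBs arrays. The list members and named genes set against other tissues below were mostly chosen for a change in An-LBs. That choice favours a larger effect there. With single An-LBs or An-MBs arrays left out, the number for An-MBs lay between 3764 and 7757, the highest without MES An-MBs replicate 2. For SBs and Ls only An-LBs arrays were left out, so how far those numbers depend on SBs or Ls arrays was not tested.

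The loss of pollen transcripts was already present in anthers of middle buds. Of the 17 pollen marker probes tested in An-MBs none was higher and 16 were lower (median -7.17), against 1 of 7 lower in Ls and none of 5 in SBs, where most markers were too dim to test. Of all probes tested, 2.86% were lower in An-MBs, 2.3% in Ls and 2.32% in SBs. Most of the 17 pollen marker probes were above background in An-MBs on mock arrays only. They passed the filter through the group where they were high, which favours a call of a lower level. Against An-MBs the effect in An-LBs was more negative for 18 of the 26 probes and less negative for 1, beside 7.36% and 6.86% of all probes. The 26 include probes too dim to be tested in An-MBs, such as CHX23 with a mean of 2.78 in mock An-MBs. Such probes could show no fall there, which favours a more negative effect in An-LBs. For VGDH1 the MES effect in An-LBs minus that in An-MBs was 0.27 ± 0.75, adjusted p = 0.849, and for the brighter probe of PPME1 2.31 ± 1.00, adjusted p = 0.134, neither of which passed the test. The brighter probe of VGDH2 was lowered less in An-LBs than in An-MBs (4.28 ± 0.69, adjusted p = 0.000249). In MES An-MBs none of these 3 probes stood above background on any array, so their effects there are fitted to values at the floor. The other probes of PPME1 and VGDH2 gave the opposite sign (-6.10 ± 0.91, adjusted p = 9.66e-05 and -11.15 ± 1.15, adjusted p = 9.20e-07). In mock An-MBs they averaged 10.91 and 2.93, the second of them below background, and in mock An-LBs 18.09 and 14.71. For other transcripts the fitted MES effect did differ between the anther stages, but so did their mock levels. Of the 6 ROP signalling probes 2 could be tested in An-MBs and 1 was lower, and the effect was more negative in An-LBs than in An-MBs for 5 of the 6. ROPGEF12, RIC5 and RIC6 averaged 2.82, 2.85 and 3.79 in mock An-MBs and were above background on no mock array there. No fall could be seen for them in An-MBs, which favours a more negative effect in An-LBs. The probe of OPT1 given above, lower in An-LBs, had a log2 fold change of 1.35 in An-MBs that was not called (difference -7.45 ± 0.50, adjusted p = 1.59e-09). Its mean level was 8.57 in mock An-MBs, against 15.91 in mock An-LBs, so it had less signal to lose in An-MBs. LAP6 averaged 9.45 in MES SBs, against 15.83 in mock SBs, without a call, and 8.17 in MES An-MBs, against 6.74 in mock An-MBs, and the difference of its effect between An-LBs and An-MBs did not pass the test (-5.68 ± 2.17, adjusted p = 0.09).

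The rise of photosynthesis transcripts was larger in An-LBs than in leaves or small buds. The effect was more positive in An-LBs than in Ls for 22 of 25 probes and than in SBs for 19, and less positive for 1 in each case, whereas against An-MBs it was more positive for 5 and less for none. Over all probes it was more positive for 16.5% against Ls, 11.7% against SBs and 6.86% against An-MBs, and less positive for 12.5%, 9.52% and 7.36% in the same order. Within each tissue 7 probes were higher and none lower in An-MBs (median 1.08), none was higher and 2 lower in SBs (median 0.10), and none was higher and 2 lower in Ls (median -0.43). Of all probes tested, 4.24% were higher in An-MBs (median -0.04), 1.81% in SBs (median 0.05) and 2.52% in Ls (median -0.05). PSAN averaged 17.42 in MES Ls, against 17.37 in mock Ls, far above either anther value. Its effect exceeded that in Ls by 2.36 ± 0.40, adjusted p = 0.000217, and the difference from An-MBs of 0.91 ± 0.40, adjusted p = 0.139 did not pass the test.

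The strongest rises were larger in An-LBs than elsewhere in most but not all cases. These genes were named for their rises in An-LBs, and the contrasts use the same arrays, so that choice favours a larger effect in An-LBs. ATPMEPCRD averaged 14.61 in MES An-MBs, against 11.68 in mock An-MBs, and 11.93 in MES SBs, against 5.72 in mock SBs, and it was not above background in leaves. Its mock level was lower and its MES level higher in An-LBs than in An-MBs, and the effect in An-LBs exceeded that in An-MBs by 7.51 ± 0.99, adjusted p = 2.10e-05 and that in SBs by 4.22 ± 0.99, adjusted p = 0.00458. The brighter probe of WRKY25 rose in all 4 tissues, and most in An-LBs, with differences of 2.54 ± 0.35, adjusted p = 4.44e-05 from An-MBs, 4.23 ± 0.35, adjusted p = 3.10e-08 from SBs and 3.75 ± 0.35, adjusted p = 1.67e-07 from Ls. LOG1 differed from each of the 3 other tissues as well, by 5.30, 7.77 and 8.91 in the same order (adjusted p = 0.000192, 1.15e-06 and 1.59e-07). CEN2 rose by 4.10, 4.25 and 5.83 in An-MBs, SBs and Ls, and none of its differences passed the test (smallest adjusted p = 0.279). SPX1 went the other way, with a smaller effect in An-LBs than in An-MBs (-2.50 ± 0.45, adjusted p = 0.00081).

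**Figure D4:**
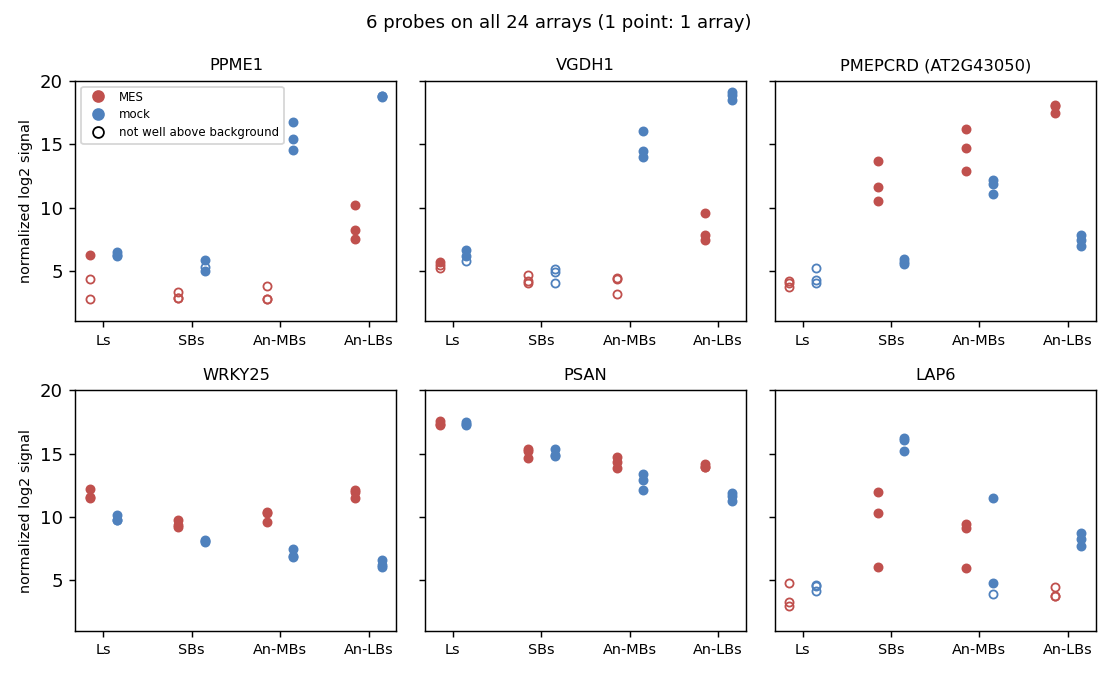
Normalized log2 signal of 6 probes on all 24 arrays, by tissue along the horizontal axis, MES arrays left of mock arrays, with open points where the probe was not well above background. PPME1 and VGDH1 appear in mock An-MBs and An-LBs and are far lower under MES, though above background on every MES An-LBs array. PMEPCRD parts the treatments most widely in An-LBs, WRKY25 is higher under MES in every tissue, and PSAN separates the treatments in An-LBs and An-MBs but not in Ls.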

How the data were processed

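RNA of each sample was labelled with Cy3 and hybridized to a 1-colour Agilent Brassica array. The authors read the deposited intensity values with Feature Extraction, and its background subtraction and spatial detrending act within an array, per the file headers. The deposited log2 values were made by the authors by quantile normalization in GeneSpring.

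Here, repeated spots were averaged per probe, 1417 control spots left out, and log2 intensities quantile-normalized over 24 arrays (median difference from the authors' log2 values 6.54e-07). Outlying spots had no weight. The 3 MES and 3 mock An-LBs arrays were fitted with limma (version 3.58.1, R version 4.3.3, data.table version 1.17.8) using lmFit and eBayes. Tested were probes that Feature Extraction marked as well above background on 3 or more of these arrays. 1 probe was left without a test in some settings for lack of unweighted spots. Differences between tissues were contrasts in 1 fit of 24 arrays, at an adjusted p under 0.05. The scripts were tested on simulated data, and figures drawn with matplotlib (version 3.10.9, Python version 3.11.15). For arrays, their number limits the precision.

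The members, lists and tests were chosen with earlier results of these data known. Lists are the study's MapMan categories and sets of Arabidopsis identifiers or description words applied to its annotation. Named are the 5 largest rises and falls among called probes above background on all 6 arrays whose groups do not overlap, up to 3 rises and 3 falls per list with 1 probe for each Arabidopsis identifier, the marker probes, the random qRT-PCR probes, the actin reference, and all probes of a gene whose probes differ in direction. Replicate numbers were not used as pairs: deviations of equally numbered arrays from their group means correlated at -0.234, 0.0399 and 0.214 over 27364 probes. Alternatives covered the scaling, background correction, filters, weights, blocks, tests and single anther arrays left out.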

Additional observations from a re-analysis of the deposited data

Results flagged for a closer look

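The MES effect differed between tissues in the test of the difference itself. An-LBs minus An-MBs gave 5379 probes, An-LBs minus SBs 8014 and An-LBs minus Ls 10951, of 37833 tested, at an adjusted p under 0.05 in limma.

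For 3 named probes the calls in An-LBs and Ls were opposite, higher under MES in An-LBs and lower in Ls. The inositol transporter INT2 differed by 5.12 on the log2 scale between the effects in An-LBs and Ls (adjusted p = 3.78e-05), the transporter AT2G26690 by 3.37 (adjusted p = 7.52e-05) and the aminotransferase AOAT2 by 3.54 (adjusted p = 0.00414). INT2 was not well above background on any of the mock An-LBs arrays.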

How the results depend on the processing

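With arrays scaled by their 75th percentile 5207 probes were higher and 4545 lower (median log2 fold change 0.14), and with normexp background correction 4852 and 3759. The methods' t-test gave 1638 higher and 1929 lower at a p of at most 0.001, and 4852 and 3581 after Benjamini-Hochberg. Without the fold limit 9364 were higher and 5494 lower, and a limma test against a 2-fold change gave 1792 and 2323. On the 2 MES and 2 mock arrays of the shared scan date, chosen after seeing the data, 3203 were higher and 2766 lower. Leaving out each An-LBs array gave 4977 to 6531 higher and 3611 to 4135 lower. Leaving out single An-LBs or An-MBs arrays gave 3764 to 7757 differences from An-MBs. Leaving out single An-LBs arrays gave 6192 to 7262 from SBs and 8739 to 9966 from Ls, and no SBs or Ls array was left out. With the replicate number as a block 5861 were higher and 4092 lower, and 9640 of these calls were among the 10233. Slide as a random block over 24 arrays gave 5791 and 4189 (correlation 0.063), and scan date 5848 and 4184.

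The scan date setting holds fewer arrays by construction, and the cause of the other shifts was not tested. Of 196 named probes, 158 kept their call under every setting that tested them, 38 changed it under at least 1, and none reversed. A filter on all 6 arrays, which drops probes at background in MES, left 21 of 48 lower pectin probes, 9 of 26 pollen markers and 9 of 18 DUF1216 probes. It left 1 of 6 lower ROP signalling probes and 3 of 7 lower vesicle transport probes. The test against a 2-fold change left 12 of 21 higher photosynthesis probes and 8 of 15 green tissue probes.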
